A study of Mus musculus with 6 samples.

Results

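The genes described here are those whose transcripts were counted in every ID8 library and were nearly absent from every KMF library. A protein-coding gene was taken as switched off in KMF when each of its 3 ID8 counts was at least 30 and each of its 3 KMF counts was at most 3. The count limits were met by 72 genes of the 7320 in the deposited table, of which 6901 were protein-coding. The rule sets aside 3 names (Peg3, Sgce and Twist1) and families named alike, such as solute carriers, zinc finger proteins, collagens, ion channels, HOX factors and Bex genes, which took out 14 genes and left 58. Because the counts of both lines chose the 58 genes, their difference between the lines is given as a description. Intervals on their ratios cover counting error alone, and their edgeR calls are printed once, beside the share of all genes, with nothing read from them.

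RNA was sequenced from 2 mouse ovarian lines of strain C57Bl6, each with 3 libraries of poly-A RNA from cells grown for 5 days as tumorspheres, which are floating cell clusters, in serum-free PromoCell XF media. ID8 is a mouse line of transformed ovarian epithelium grown from 1 clone, and its replicates 1, 2 and 3 were taken at passages 23, 24 and 35. KMF, also called ID8-IP, is a single line recovered from the ascites of C57Bl6 mice carrying ID8 cells and set apart by DNA copy number gains and losses, and its replicates were taken at passages 14, 17 and 22. No drug or genetic change was added to either line, so each comparison is between a parental line and 1 line grown out of it. Every KMF passage number was below every ID8 passage number, so line and passage number cannot be told apart in any comparison.

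A gene of a cultured line is transcribed when its promoter is open and the factors that bind it are present, and a line kept for many generations can lose single genes for good. Such loss may come with DNA methylation of a promoter rich in CG dinucleotides, with compaction of the chromatin around it, with loss of an activating factor or with deletion of the gene. RNA counts do not tell these apart, and in bulk samples a gene carried by fewer cells cannot be told apart from less RNA in each cell. A gene at very few counts in 1 line is therefore described here only as having little or no polyadenylated transcript in that culture.

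The libraries held 23108407 to 33212313 fragments on genes, and 3 counts over the 3 KMF libraries together corresponded to 0.0375 CPM, the counts scaled to library size. Markers of ovarian surface epithelium and mesothelium were listed for 20 of 27 genes, and Wt1, Gata4 and Msln were present in all 6 libraries. The summed level of the list was 1465 to 1807 CPM in ID8 and 1307 to 1443 CPM in KMF. The median log2 difference of the 18 fitted markers was -1.29, beside -0.23 over all genes fitted. Aldh1a2 and Upk3b fell by 6.84 ± 0.92 and 3.88 ± 0.57 on the log2 scale (SE), while Msln rose by 1.45 ± 0.13. In edgeR, 13 of the 18 were called lower and 4 higher in KMF, or 11 and 3 after adjustment over all GENCODE genes. Such counts are read against the whole table, in which 50.2% of the 6967 fitted genes were called lower and 49.7% higher, so a call alone says little. The markers of granulosa and steroidogenic cells were lower for 8 of 8 fitted genes, 6 of them also after that adjustment, with summed levels of 1353 to 1451 CPM in ID8 and 148 to 169 CPM in KMF, and the 4 fitted fibroblast and stroma genes of 11 were lower too, at 234 to 284 CPM against 38.3 to 69.2 CPM. Of 16 leukocyte markers only Cd74 was listed, at 1.21 to 2.24 CPM in ID8 and 0.303 to 0.551 CPM in KMF. Of 10 endothelial markers 4 were listed, with a summed level of 57.0 to 97.2 CPM in ID8 and 167 to 266 CPM in KMF, and the rise was in Tek while Esam was lower, a call lost after that adjustment. The part of these marker shifts in the low KMF counts of the 58 genes was not tested, and none of the 58 was on any of these lists. ID8 replicate 3, the highest passage, stood apart in some epithelial genes, with 245 counts of Aldh1a2 against 1870 and 1520 in replicates 1 and 2, and 540 counts of Upk3b against 1744 and 2366.

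The promoters of 5 of the 58 genes are shown because these genes were among the most expressed of the set in ID8: Ahrr and Mboat2 had the highest CPM in ID8, and Chic1, Irx3 and Shbg the highest among genes with 0 counts in KMF for which a window was given. The windows run from 250 bases before to 50 bases after the gene start, come from RefSeq on build GRCm38, and are written 5′ to 3′ with every CG dinucleotide in capitals. They lie at chr13:74292282-74292581 on the minus strand for Ahrr, chr12:24831349-24831648 on the plus strand for Mboat2, chrX:103356226-103356525 on the plus strand for Chic1, chr8:91801605-91801904 on the minus strand for Irx3 and chr11:69617856-69618155 on the minus strand for Shbg.
Ahrr: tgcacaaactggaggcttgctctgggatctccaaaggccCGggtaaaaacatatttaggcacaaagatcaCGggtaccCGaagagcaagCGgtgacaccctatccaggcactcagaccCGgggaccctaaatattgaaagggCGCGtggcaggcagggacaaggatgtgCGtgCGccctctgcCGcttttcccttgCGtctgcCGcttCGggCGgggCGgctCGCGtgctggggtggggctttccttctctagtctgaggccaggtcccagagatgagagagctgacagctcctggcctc
Mboat2: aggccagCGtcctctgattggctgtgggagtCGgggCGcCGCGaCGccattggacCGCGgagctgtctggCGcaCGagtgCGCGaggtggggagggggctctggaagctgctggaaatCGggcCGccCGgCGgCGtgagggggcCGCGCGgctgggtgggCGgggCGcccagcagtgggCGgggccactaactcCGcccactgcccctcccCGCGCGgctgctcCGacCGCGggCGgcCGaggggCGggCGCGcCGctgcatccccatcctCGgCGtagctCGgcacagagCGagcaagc
Chic1: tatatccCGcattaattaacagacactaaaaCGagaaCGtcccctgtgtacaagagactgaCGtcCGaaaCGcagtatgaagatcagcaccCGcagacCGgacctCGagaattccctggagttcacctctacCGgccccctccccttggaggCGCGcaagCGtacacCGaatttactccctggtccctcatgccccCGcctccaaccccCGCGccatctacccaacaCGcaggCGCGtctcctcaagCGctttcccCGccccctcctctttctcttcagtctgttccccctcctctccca
Irx3: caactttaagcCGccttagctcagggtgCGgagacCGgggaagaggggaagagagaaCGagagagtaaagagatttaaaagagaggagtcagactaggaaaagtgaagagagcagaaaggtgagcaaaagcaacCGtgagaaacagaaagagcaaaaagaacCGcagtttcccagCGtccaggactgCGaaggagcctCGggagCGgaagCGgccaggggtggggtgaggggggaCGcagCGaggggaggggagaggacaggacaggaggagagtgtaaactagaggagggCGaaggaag
Shbg: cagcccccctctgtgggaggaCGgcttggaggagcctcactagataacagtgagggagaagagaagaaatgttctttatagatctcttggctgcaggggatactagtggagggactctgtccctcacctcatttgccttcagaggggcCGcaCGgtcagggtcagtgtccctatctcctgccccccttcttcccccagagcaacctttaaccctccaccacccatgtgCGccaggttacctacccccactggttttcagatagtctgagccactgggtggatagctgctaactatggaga

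The 5 windows differ in the number of CG, a motif that reads the same on both strands. Mboat2 has 40, Chic1 22, Ahrr 17, Irx3 14 and Shbg 4, beside a median of 7 over the first windows of 27025 RefSeq genes. At least 1 CG is held by 94.2% of those windows, at least as many as Mboat2 by 3.80%, as Chic1 by 23.3%, as Ahrr by 31.9%, as Irx3 by 36.9% and as Shbg by 68.1%. The Irx3 window is set on a RefSeq start 262 bases from the start listed in the table. So a switched-off gene could have a promoter dense in CG, such as Mboat2, or poor in it, such as Shbg. The letters GCGTG, the core that the aryl hydrocarbon receptor binds, were searched on both strands, where every match also holds a CG. They occur 3 times in the Ahrr window and at least once in 32.5% of all windows. A match describes these letters only. A window was given for 42 of the 58 genes (72.4%), and a check of CG content over the set is void because that share is too small. Among the 42, the CG number ran from 1 in Slfn14 to 48 in Fndc5.

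The 58 genes gave 16333 counts in the ID8 libraries together and 109 in the KMF libraries together. In replicates 1, 2 and 3 their summed level was 217, 218 and 182 CPM in ID8 and 1.53, 1.77 and 0.964 CPM in KMF. A total of 23 genes had no count in any KMF library, 21 had 1 to 3 counts over the 3 libraries, and 14 had more than 3, up to 8 for Mboat2. In edgeR's quasi-likelihood test with Benjamini-Hochberg adjustment, all 58 were called lower in KMF, in a table in which 50.2% of the 6967 genes fitted were called lower and 99.8% were called in either direction. Nothing is read from this, since the counts chose the genes and the authors' table was itself limited to genes that differed. The median fold, with genes at 0 taken at their lower bound, was 74.7.

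**Figure D1:**
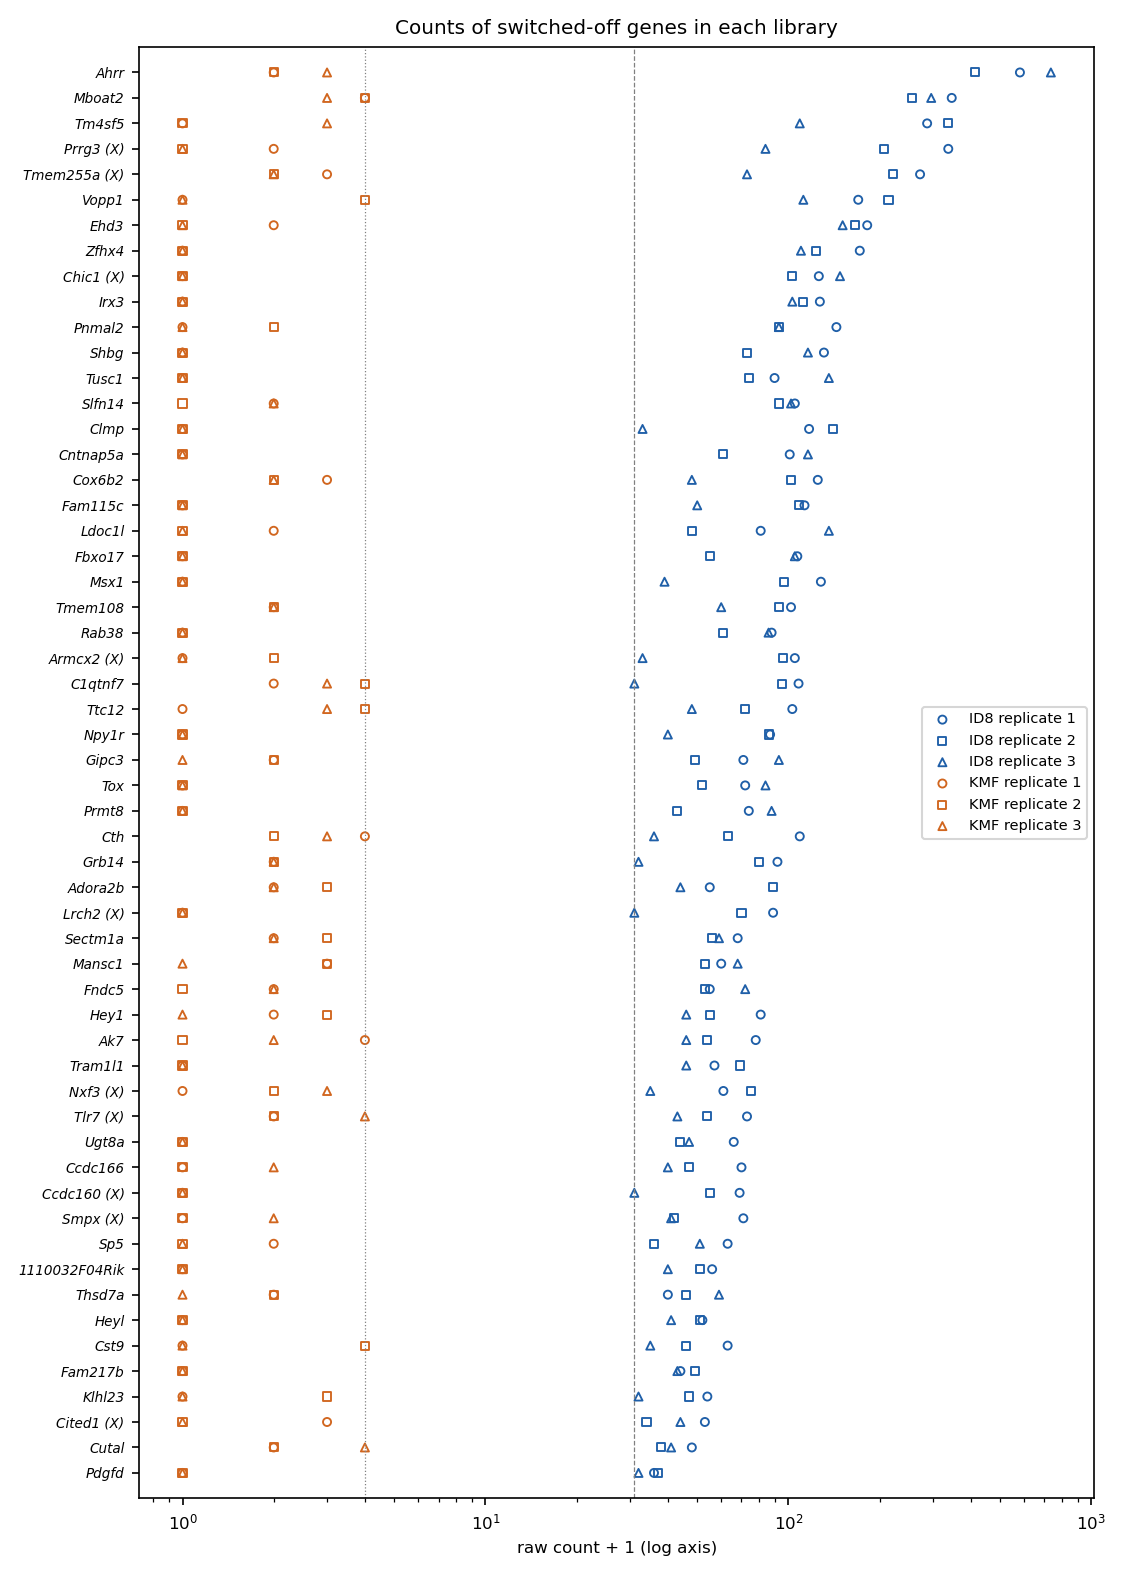
Raw counts plus 1 (log axis) of 56 of the 58 switched-off genes in the 3 ID8 and 3 KMF libraries, ordered by mean ID8 CPM, with X-linked genes marked; the dashed and dotted lines are the limits of 30 and 3 counts that chose them. ID8 points spread from 30 to 734 counts and KMF points from 0 to 3.

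Most of the 58 genes were expressed weakly in ID8. Their mean ID8 level ran from 1.30 CPM for Pdgfd to 21.8 CPM for Ahrr, with a median of 2.62 CPM, whereas the 6024 listed protein-coding genes with at least 30 counts in each ID8 library had a median of 39.2 CPM. Per length, the median was 0.916 FPKM (fragments scaled to gene length and library size) beside 11.7 FPKM, and 25 of the 58 genes exceeded 1 FPKM. Tm4sf5 had the highest ID8 level per length at 9.26 ± 4.85 FPKM (SD, n = 3), followed by Cox6b2 at 5.82 ± 2.33, Ahrr at 4.27 ± 1.19 and Mboat2 at 4.02 ± 0.216. The SD of Tm4sf5 spans the level of Cox6b2, so these 4 levels are not clearly ordered. Thsd7a had the lowest at 0.165 ± 0.0428 FPKM.

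The limits cut through a continuous range. Just inside the ID8 limit were C1qtnf7, Ccdc160 and Lrch2, each with 30 counts in its lowest library, and Grb14 with 31. Just outside were Nkain2, Obp2a and Sgcz with 29 and Dmrt2 with 27, while their KMF counts did not exceed 3. At the KMF limit, Mboat2, C1qtnf7 and Cth reached 3 counts in at least 1 library, and Prss30, Snx31, Nipal2 and Ankrd29 reached 4 and were not included. A KMF ceiling of 3 was met exactly by 10 of the 58 genes, and 28 further genes had 4 to 6 counts in their highest KMF library. For genes with any KMF count the ratio of ID8 to KMF reached 630 for Prrg3, and for genes with none the lower bound ran from 34.3 for Pdgfd to 135 for Zfhx4.

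**Figure D2:**
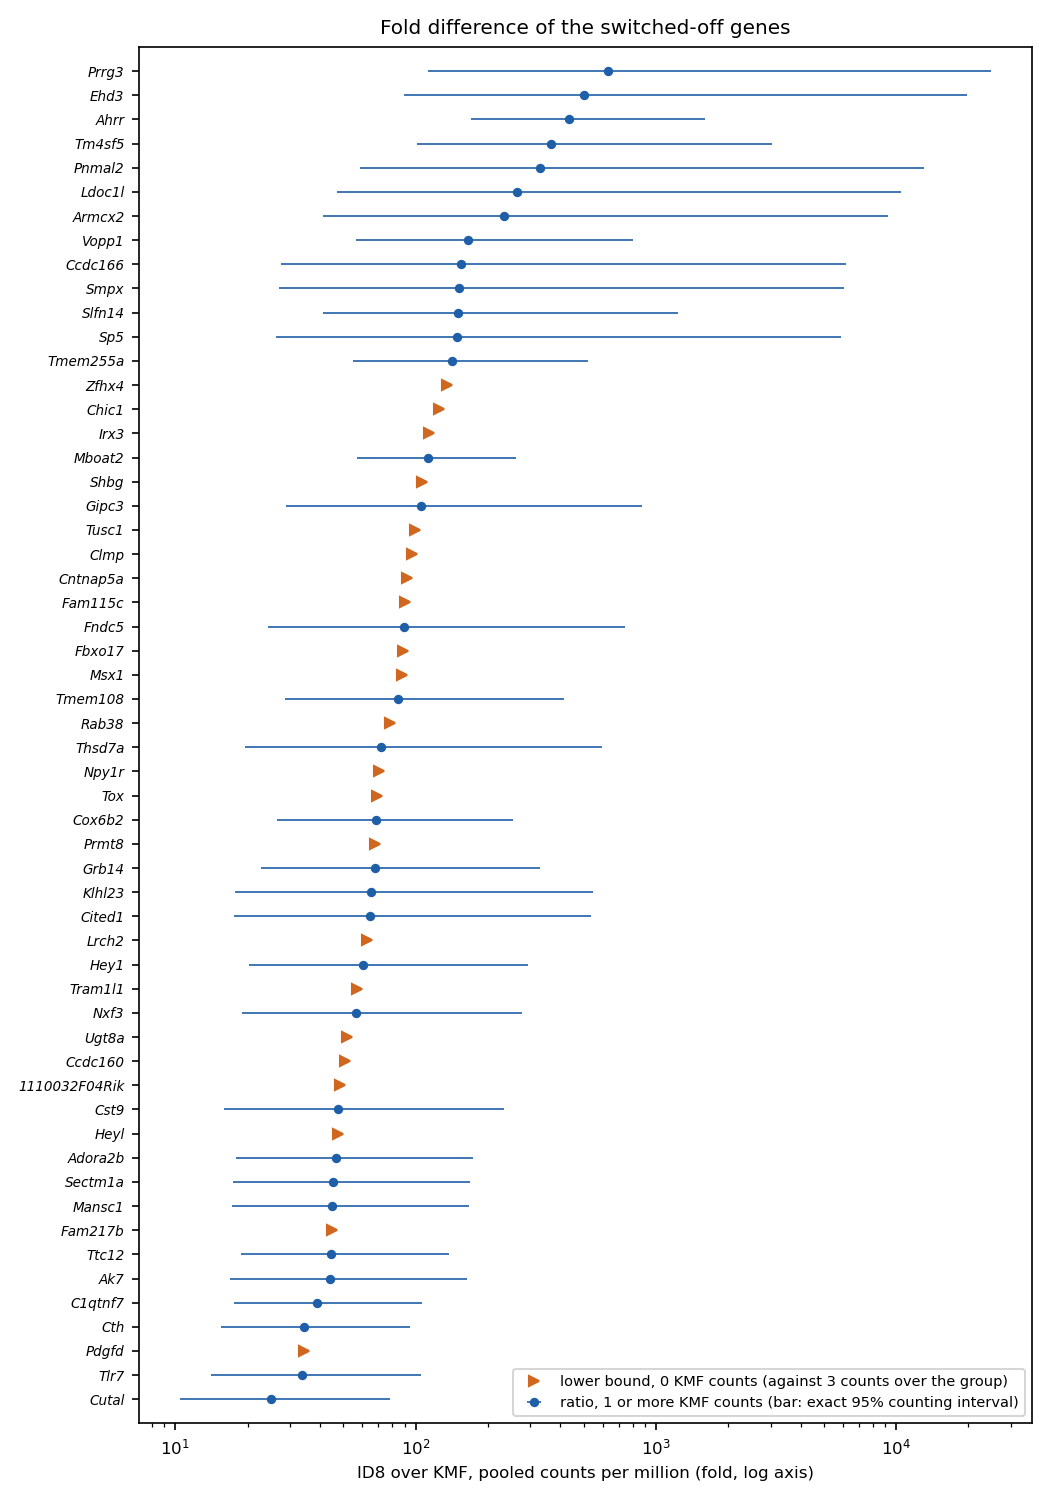
Level in ID8 over level in KMF (pooled CPM, log axis) of 56 of the 58 switched-off genes. Circles are ratios with exact 95% counting intervals, as for Prrg3 at 630 (113 to 24918), and triangles are lower bounds of genes with 0 KMF counts, up to 135 for Zfhx4; the bars cover counting error only.

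Regulators of transcription made up 12 of the 58 genes, and 7 of these had no KMF count. Ahrr, which encodes the repressor of the aryl hydrocarbon receptor, a sensor of dioxins and of tryptophan products, lies at chr13:74211118-74292331 on the minus strand. It had 580, 412 and 734 counts in ID8 replicates 1, 2 and 3 and 1, 1 and 2 in KMF, and all later counts are given in the same order of replicates. The lines were far apart, and the ratio of the pooled CPM was 435 (95% counting interval 170 to 1598). Such intervals cover counting error only, since reads without molecular identifiers are not independent molecules.

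The receptor whose activity the Ahrr protein limits was itself listed. Ahr had 2.74, 3.61 and 2.91 FPKM in ID8 and 7.64, 6.71 and 4.93 FPKM in KMF, a rise of 1.10 ± 0.19 on the log2 scale (SE) with an edgeR adjusted p of 0.00116. Cyp1b1, an oxidase gene that the receptor induces, had 45.6, 51.9 and 31.7 FPKM in ID8 and 166, 146 and 131 FPKM in KMF. The groups did not overlap for either gene, and Cyp1b1 rose by 1.81 ± 0.19 (adjusted p = 0.000103). Here and below, the share of all listed genes without overlap was not counted. A lack of overlap therefore does not set a gene apart from the rest of a table limited to genes that differed. Tiparp, another target gene of the receptor, rose by 0.62 ± 0.12 (adjusted p = 0.00169). Nqo1, which the oxidative stress factor NRF2 also controls, fell by 0.88 ± 0.20 (adjusted p = 0.00372), and the partner gene Arnt2 fell by 2.19 ± 0.43 (adjusted p = 0.00199). Of 9 genes of the pathway that were looked up, 6 were listed, and edgeR called 3 up and 3 down in KMF, with a median log2 difference of 0.14 beside -0.23 over all genes fitted. This list of relatives and those below were written once the 58 names were known, from family and pathway membership, and the table holds only genes that differed, so the counts describe listed genes alone.

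Hey1 and Heyl encode related repressors that Notch signalling induces directly, and both were switched off. They fall outside the naming rule and were singled out after their values were seen. Hey1 (chr3:8663362-8667039, minus strand) had 80, 54 and 45 counts in ID8 and 1, 2 and 0 in KMF, a ratio of 60.1 (20.2 to 294). Heyl (chr4:123233556-123249875, plus strand) had 51, 50 and 40 counts in ID8 and none in KMF, at least 47.4-fold lower. At ID8 levels of 1.01 ± 0.218 and 0.394 ± 0.0575 FPKM (SD, n = 3), both were weakly expressed there.

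Most listed genes of the Notch pathway were higher in KMF. Of 22 ligands, receptors, modifiers and targets looked up, 13 were listed, and edgeR called 12 of them higher in KMF and 1, the coactivator gene Maml2, lower, in a table in which 49.7% of fitted genes were called higher. Their median log2 difference was 1.25, beside -0.23 over all genes fitted. Jag1, with an adjusted p of 0.0418, was not called under DESeq2, upper quartile scaling or library totals alone. The ligand gene Jag2 had 1.47, 1.32 and 0.827 FPKM in ID8 and 8.39, 11.8 and 8.59 FPKM in KMF, a rise of 3.03 ± 0.25 on the log2 scale (SE, adjusted p = 3.07e-05). The receptor gene Notch3 rose by 2.71 ± 0.23 (adjusted p = 3.82e-05), from 0.357 ± 0.081 to 2.27 ± 0.420 FPKM (SD, n = 3). Both genes had no overlap between the lines, in a table limited to genes that differed. Nrarp, a feedback inhibitor that Notch also induces, rose by 2.98 ± 0.36 (adjusted p = 0.000199), the ligand gene Dll1 by 2.12 ± 0.36 (adjusted p = 0.00101), and the DNA-binding partner gene Rbpj by 0.76 ± 0.08 (adjusted p = 7.86e-05). Hes1, a direct target gene, had 28.6, 22.6 and 32.8 FPKM in ID8 and 38.8, 46.1 and 40.6 FPKM in KMF, a rise of 0.62 ± 0.14 (adjusted p = 0.00332). Thus 2 target genes of the pathway were switched off in the same libraries in which Hes1, Nrarp and most listed components were higher.

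**Figure D3:**
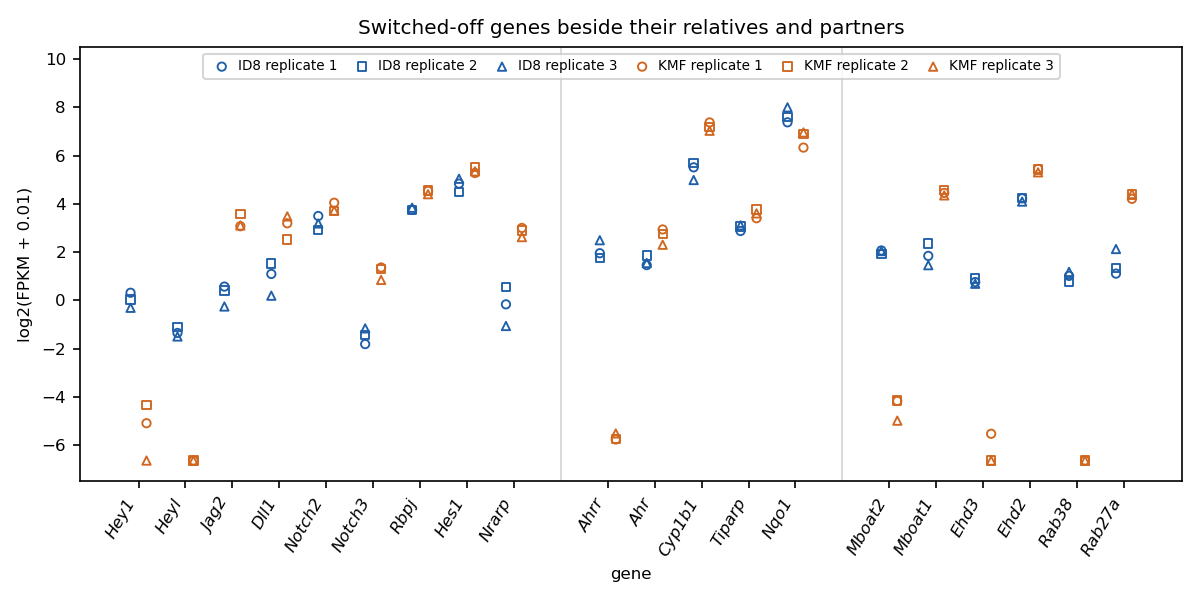
log2(FPKM + 0.01) in each ID8 and KMF library for switched-off genes beside listed relatives or partners: Hey1 and Heyl with the Notch pathway, Ahrr with the aryl hydrocarbon receptor pathway, and Mboat2, Ehd3 and Rab38 each followed by a relative. A gene listed at 0 sits at the bottom, as Heyl and Rab38 do in all 3 KMF libraries, while Jag2, Notch3, Cyp1b1, Mboat1, Ehd2 and Rab27a lie higher in KMF.

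The other regulators included factors known from embryonic patterning. Zfhx4, a large zinc finger homeodomain gene at chr3:5218526-5415857 on the plus strand, had 171, 122 and 109 counts in ID8 and none in KMF, at least 135-fold lower. Irx3, an Iroquois homeobox gene at chr8:91798525-91801916 on the minus strand, had 126, 111 and 102 counts against none, at least 114-fold lower. Both genes had over 100 counts in each ID8 library and were not detected at this depth in any KMF library. The homeobox gene Msx1 had 127, 96 and 38 counts in ID8, lowest in replicate 3, and none in KMF. Tox, an HMG-box gene known from T cell development, had 71, 51 and 83 counts and Prmt8, an arginine methyltransferase gene, 73, 42 and 87, both with none in KMF. Sp5, a Wnt-responsive factor gene, had 62, 35 and 50 counts against 1, 0 and 0. Cited1, a coactivator gene, had 52, 33 and 43 against 2, 0 and 0, and Nxf3, a relative of the mRNA export factor, 60, 74 and 34 against 0, 1 and 2.

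Of 26 homeodomain, zinc finger, HMG-box and CITED relatives looked up, 6 were listed, 5 of them lower and Sp8 higher, and the lower call of Cited2 was lost after adjustment over all GENCODE genes. Cited4 fell by 4.87 ± 0.12 on the log2 scale (adjusted p = 4.62e-07), from 95.7 ± 9.77 FPKM to 3.19 ± 0.249 (SD, n = 3). Irx5, which shares a gene cluster with Irx3, fell by 1.24 ± 0.12 (adjusted p = 5.74e-05) but kept 4.86 ± 0.251 FPKM in KMF. Sp8 rose by 2.66 ± 0.44 (adjusted p = 0.000878), at no more than 0.298 FPKM on average. Irx5 and Cited4 thus still had transcripts in each KMF library. Irx3 shares 124 exon bases with the listed antisense gene Irx3os, and exons of Prmt8 and Tox overlap antisense genes by 233 and 260 bases. Whether counting used strand is not given in the sources used here, so reads of overlapping genes may not be told apart.

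Secreted factors, receptors and signalling proteins accounted for 11 genes, 3 of them with no KMF count. Shbg, the carrier of sex steroids in blood, lies at chr11:69614804-69617905 on the minus strand and had 130, 72 and 115 counts in ID8 and none in KMF, at least 106-fold lower. Its level per length was 2.79 ± 0.596 FPKM (SD, n = 3), not clearly apart from Gipc3 at 2.59 ± 0.814 and Cst9 at 2.57 ± 0.58. C1qtnf7, a secreted protein of the C1q and TNF family, had 107, 94 and 30 counts against 1, 3 and 2, and its level in ID8 replicate 3 was far below that in the others. Npy1r, a receptor for neuropeptide Y, had 86, 85 and 39 counts against none, and Gipc3, a PDZ adaptor needed in hair cells of the ear, had 70, 48 and 92 against 1, 1 and 0. Pdgfd, a ligand of the beta type PDGF receptor, had 35, 36 and 31 counts against none, the smallest bound of all at 34.3-fold lower. The remaining genes were Grb14, an adaptor that inhibits the insulin receptor, Adora2b, an adenosine receptor, Sectm1a, Fndc5, the precursor of irisin, Tlr7 and the cystatin gene Cst9. Their ID8 counts ran from 31 to 91 and their KMF counts from 0 to 3.

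Adora2b had 54, 88 and 43 counts in ID8 and 1, 2 and 1 in KMF, a ratio of 46.6 (17.9 to 173). Of the listed genes of the same system, some were lower and some higher. Nt5e, which makes extracellular adenosine, had 556, 864 and 260 counts against 5, 5 and 5 and fell by 6.77 ± 0.62 on the log2 scale (adjusted p = 5.33e-05), and Adora1, another adenosine receptor gene, fell by 2.63 ± 0.30 (adjusted p = 0.000155). Ada, which degrades adenosine, and Npy, the ligand gene of Npy1r, rose by 1.04 ± 0.28 and 2.15 ± 0.64 (adjusted p = 0.00763 and 0.0123), but neither was called after adjustment over all GENCODE genes. These 4 were the listed genes of 9 looked up. Tlr7, an endosomal sensor of single-stranded RNA, had 72, 53 and 42 counts against 1, 1 and 3, a ratio of 33.7 (14.1 to 105). Unc93b1, which carries this receptor to endosomes, fell by 2.93 ± 0.19 (adjusted p = 1.29e-05). Tlr3 also fell, by 1.00 ± 0.19 (adjusted p = 0.00151). The cell surface receptor genes Tlr2, Tlr4 and Tlr5 rose by 2.24 ± 0.38, 1.60 ± 0.13 and 2.85 ± 0.62, with adjusted p values of 0.00103, 3.02e-05 and 0.00319. The rise of Tlr5 rested on few counts, 10, 7 and 3 in ID8 and 72, 18 and 51 in KMF, at no more than 0.559 FPKM on average. Of 11 Toll-like receptor genes and partners looked up, 6 were listed, 4 higher and 2 lower, in a table in which 49.7% of fitted genes were called higher.

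Among PDGF genes, 4 of 5 relatives were listed. Pdgfa and Pdgfra fell by 0.62 ± 0.10 and 1.15 ± 0.28 on the log2 scale (adjusted p = 0.000663 and 0.00524), while Pdgfb and Pdgfc, with differences of 0.60 ± 0.21 and 0.48 ± 0.20 and adjusted p values of 0.0227 and 0.0485, lost their call with upper quartile scaling and after adjustment over all GENCODE genes.

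Proteins of the cell surface and membranes formed a further large group, with 11 genes and 4 at 0 in KMF. Tm4sf5, a relative of the tetraspanins at chr11:70505244-70511178 on the plus strand, had 286, 335 and 108 counts in ID8 and 0, 0 and 2 in KMF, a ratio of 367 (101 to 3039). Prrg3, an X-linked membrane protein with a vitamin K-dependent Gla domain (chrX:71962624-71972722, plus strand), had 336, 206 and 83 counts against 1, 0 and 0, a ratio of 630 (113 to 24918). Tmem255a, also X-linked (chrX:38196573-38252439, minus strand), had 271, 220 and 72 counts against 2, 1 and 1, a ratio of 142 (55.1 to 522). In each of these 3 genes ID8 replicate 3 was the lowest library by a wide margin. Vopp1, a vesicle-associated protein (chr6:57727807-57825154, minus strand), had 169, 213 and 111 counts against 0, 3 and 0, a ratio of 166 (56.3 to 806). Chic1, an X-linked protein with a cysteine-rich hydrophobic domain (chrX:103356476-103396092, plus strand), had 125, 102 and 147 counts against none, at least 126-fold lower, and was highest in replicate 3.

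Other membrane genes followed the same count pattern at lower levels. Clmp, an adhesion molecule of epithelial junctions, had 116, 139 and 32 counts in ID8 and none in KMF, and its highest ID8 library was 4.62 times its lowest, the widest spread of the 58 genes. Cntnap5a, a contactin-associated relative of the neurexins, had 100, 60 and 115 counts against none, and Lrch2, X-linked with leucine-rich repeats, 88, 69 and 30 against none. Tmem108 had 101, 92 and 59 counts against 1 in each KMF library, Mansc1 59, 52 and 67 against 2, 2 and 0, and Thsd7a 39, 45 and 58 against 1, 1 and 0. Tmem255a shares 474 exon bases with the listed gene Zbtb33 on the other strand, Tmem108 shares 1553 with an antisense gene and Clmp 463. Of 13 relatives of Tm4sf5, Clmp and Cntnap5a looked up, 3 were listed. Cntnap1 fell by 1.25 ± 0.18 on the log2 scale (adjusted p = 0.00044), and Esam fell by 0.85 ± 0.22 (adjusted p = 0.00642), a call lost after adjustment over all GENCODE genes.

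Intracellular trafficking, protein turnover and the cytoskeleton were represented by 7 genes, 3 at 0 in KMF. Ehd3, an ATPase of endosomal recycling at chr17:73804841-73832093 on the plus strand, had 181, 165 and 150 counts in ID8 and 1, 0 and 0 in KMF, a ratio of 500 (89.3 to 19783). Its ID8 libraries lay close together, within a factor of 1.17. Its relative Ehd2 had 18.7, 18.97 and 17.0 FPKM in ID8 and 43.5, 43.0 and 39.5 FPKM in KMF, a rise of 1.24 ± 0.08 on the log2 scale (adjusted p = 1.5e-05). Rab38, a small GTPase of lysosome-related organelles such as melanosomes, had 87, 60 and 85 counts against none, at least 77.9-fold lower. Rab27a, a GTPase of the same organelles, rose by 2.79 ± 0.24 (adjusted p = 4.19e-05) and the listed Rab32, the closest relative of Rab38, differed by 0.69 ± 0.32 with an adjusted p of 0.0677. None of these 3 relatives was lower in KMF, whereas Hps1, another gene of the organelles, fell by 1.06 ± 0.08 (adjusted p = 2.06e-05).

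Fbxo17, an F-box protein of ubiquitin ligases, had 106, 54 and 104 counts in ID8 and none in KMF. Armcx2, an X-linked armadillo repeat gene (chrX:134804145-134809221, minus strand), had 104, 95 and 32 counts against 0, 1 and 0, a ratio of 233 (41.4 to 9234). Of 18 genes of its genomic cluster 7 were listed, and all 7 were called lower, in a table in which 50.2% of fitted genes were. Among the 7, Bex2 and Tceal1 met the count limits themselves and were set aside by name, so their call was fixed by the rule. The median log2 difference was -3.91 with them and -1.57, that of Tceal8, without them. Armcx5 and Gprasp1 fell by only 0.50 ± 0.18 and 0.42 ± 0.13 (adjusted p = 0.0279 and 0.0171), calls lost after adjustment over all GENCODE genes. In that cluster Armcx1 had 40, 37 and 21 counts against none, Armcx3 307, 310 and 139 against 12, 23 and 13, and Tceal8 1465, 1338 and 1306 against 376, 369 and 632. The groups of these 3 genes did not overlap, in a table limited to genes that differed. Tceal8 still kept 7.20 ± 0.752 FPKM in KMF (SD, n = 3). The last 3 genes of the group were Tram1l1, a relative of an endoplasmic reticulum translocation protein, with 56, 68 and 45 counts against none, the X-linked muscle gene Smpx with 70, 41 and 40 against 0, 0 and 1, and Klhl23 with 53, 46 and 31 against 0, 2 and 0.

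Metabolic enzymes and cilium proteins completed the genes of known role. Mboat2, an acyltransferase that remodels membrane phospholipids (chr12:24831599-24960301, plus strand), had 345, 255 and 295 counts in ID8 and 3, 3 and 2 in KMF, a ratio of 113 (57.0 to 262). Its close relative Mboat1 had 3.57, 5.09 and 2.73 FPKM in ID8 and 21.9, 23.8 and 20.4 FPKM in KMF and rose by 2.57 ± 0.22 on the log2 scale (adjusted p = 3.79e-05). The Mboat1 libraries of the lines did not overlap, in a table limited to genes that differed. Lpcat4 rose by 1.92 ± 0.12 (adjusted p = 1.26e-05) and Lpcat2 fell by 2.38 ± 0.23 (adjusted p = 7.3e-05). Cth, which makes cysteine in the transsulfuration pathway, had 108, 62 and 35 counts against 3, 1 and 2, a ratio of 34.4 (15.6 to 94.9). Ahcy, an enzyme upstream of it, fell by 1.60 ± 0.13 (adjusted p = 2.92e-05) but kept 52.9 ± 8.63 FPKM in KMF (SD, n = 3). Of 9 genes of transsulfuration and cysteine supply looked up, 3 were listed, and Mpst also fell, by 0.50 ± 0.10 (adjusted p = 0.00207). Gclm rose by 0.39 ± 0.15 (adjusted p = 0.0305), a call lost with upper quartile scaling and after adjustment over all GENCODE genes. Cox6b2, a testis form of a cytochrome c oxidase subunit, had 124, 101 and 47 counts against 2, 1 and 1, and Ugt8a, which makes galactosylceramide, 65, 43 and 46 against none.

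Cilium-linked genes among the 58 included Ttc12, needed to assemble dynein arms, with 102, 71 and 47 counts in ID8 and 0, 3 and 2 in KMF, and Ak7 with 77, 53 and 45 against 3, 0 and 1. Their ratios were 44.3 (18.7 to 138) and 44.1 (16.9 to 164). Of 16 motile cilium genes looked up, 5 were listed, 4 of them lower and Dnaaf2 higher, in a table in which 50.2% of fitted genes were called lower. Their median log2 difference was -1.20, beside -0.23 over all genes fitted, and so few listed genes do not describe the family. Ccdc40 fell by 3.48 ± 0.64 (adjusted p = 0.00151) and Dnaaf1 fell by 3.12 ± 0.60 (adjusted p = 0.00183), from 0.315 and 0.288 FPKM on average in ID8, whereas Dnaaf2 rose by 0.68 ± 0.12 (adjusted p = 0.00103).

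A last group of 10 genes is derived from retrotransposons or has little known function. Pnmal2, related to retrotransposon Gag genes (chr7:16944682-16948828, plus strand), had 143, 92 and 92 counts in ID8 and 0, 1 and 0 in KMF, a ratio of 330 (58.7 to 13056). Ldoc1l, of similar origin, had 80, 47 and 135 counts against 1, 0 and 0. Tusc1, an intronless gene named as a tumor suppressor candidate, had 89, 73 and 135 counts against none, at least 99.8-fold lower, and 2.74 ± 0.941 FPKM in ID8 (SD, n = 3). Ldoc1l and Tusc1 were both highest in ID8 replicate 3. Slfn14, a schlafen family gene, had 104, 92 and 101 counts against 1, 0 and 1. In its family Slfn2 fell by 4.01 ± 0.49 on the log2 scale (adjusted p = 0.000199) and Slfn9 rose by 0.95 ± 0.14 (adjusted p = 0.00058), the listed 2 of 7 genes looked up. Fam115c, Fam217b, Ccdc160 and 1110032F04Rik had 30 to 112 counts in ID8 and none in KMF, and Ccdc166 and Cutal had 37 to 69 in ID8 and 0 to 3 in KMF.

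The switched-off genes were spread over many chromosomes and the X chromosome held the most. The X held 11 of the 58 genes (18.97%), among them Prrg3, Tmem255a, Chic1, Armcx2, Lrch2, Nxf3, Tlr7, Ccdc160, Smpx and Cited1. Of the 6024 listed protein-coding genes with at least 30 counts in each ID8 library, 212 were X-linked (3.52%). Of the fitted protein-coding genes with a negative log2 difference, called or not, 4.27% were. Before genes were left out by name the share was 13 of 72 (18.1%), so the omission of names did not make it. No test was run on this share, since the genes were chosen on their counts. Among the 20 genes of the mirror rule, with at most 3 counts in each ID8 library and at least 30 in each KMF library, 2 were X-linked. None of the 58 genes lay on chromosomes 14, 16, 18 or 19.

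**Figure D4:**
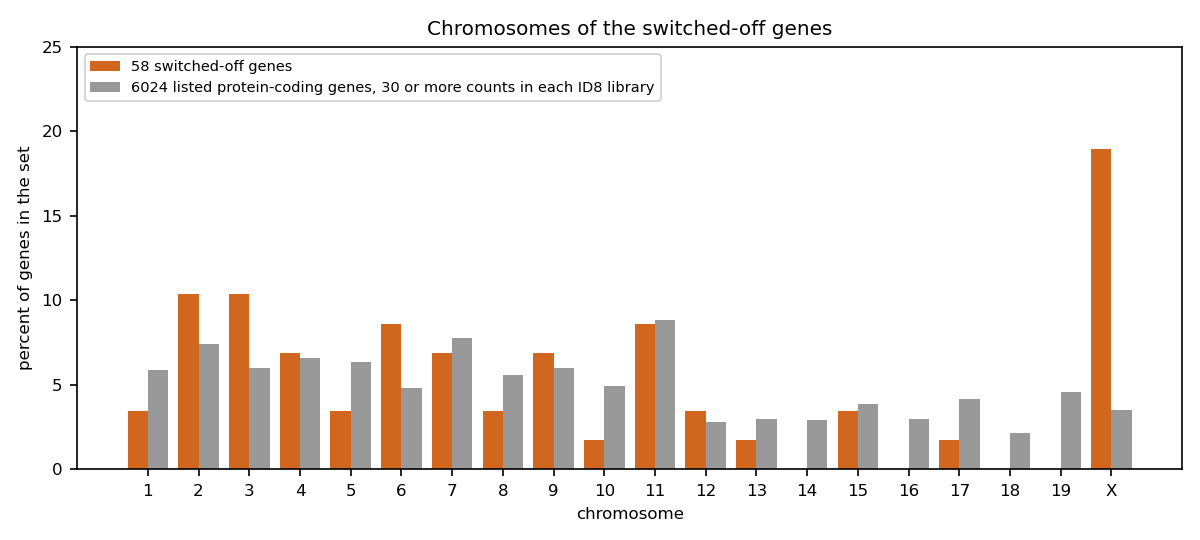
Percent of the 58 switched-off genes and of the 6024 listed protein-coding genes with at least 30 counts in each ID8 library that lie on each mouse chromosome. The X chromosome holds 18.97% of the switched-off genes and 3.52% of the comparison genes.

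No 2 of the 58 genes were within 500 kb of each other, which rests in part on the names set aside: with those kept, Bex2 lay 3863 bases from Nxf3 and Unc45b 331707 bases from Slfn14. Among the 58 the closest were Klhl23 and Sp5, 638272 bases apart on chromosome 2, and Shbg and Tm4sf5, 887339 bases apart on chromosome 11. Of 116 adjacent protein-coding genes, 45 were listed (38.8%), beside 41.0% of the neighbours of other listed genes called lower. Among the called neighbours 30 were lower and 11 higher in KMF, a share of 73.2% lower beside 66.6% for the neighbours of other lower genes. A single neighbour, Bex2 beside Nxf3 at 3863 bases, was itself switched off and had been left out by name.

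Single neighbourhoods differed. On both sides of Shbg the genes were lower, Atp1b2, which fell by 6.58 ± 0.21 on the log2 scale (adjusted p = 1.24e-06), and Sat2, which fell by 2.45 ± 0.19 (adjusted p = 2.68e-05). Sectm1a lay beside Sectm1b, which fell by 3.34 ± 0.31 (adjusted p = 5.61e-05), and Prmt8 beside Tspan11, which fell by 6.44 ± 0.43 (adjusted p = 1.5e-05). By contrast, Mboat2 lay beside Rrm2, a ribonucleotide reductase gene that rose by 2.13 ± 0.16 (adjusted p = 2.27e-05), and Cutal beside Phf19, a Polycomb-associated gene that rose by 2.59 ± 0.16 (adjusted p = 1.26e-05). The neighbours of Mboat2 and Cutal on the other side, Kidins220 and Psmd5, were not listed. Switched-off genes thus lay beside lower genes in some places and beside a higher gene in others. These neighbours were picked after their values were seen.

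The 58 genes, chosen on the counts of both lines, also varied among the ID8 libraries. ID8 replicate 3 was the lowest of the 3 libraries for 34 of them (58.6%), replicate 2 for 15 and replicate 1 for 9. Among the other 2026 listed protein-coding genes with at least 30 counts in each ID8 library and a mean CPM in the same range, replicate 3 was lowest for 42.5%. The median of replicate 3 over the mean of replicates 1 and 2 was 0.801 in the 58 genes and 0.967 in those 2026. It was 0.520 for the 11 X-linked genes and 0.896 for the other 47, beside 0.915 and 0.968 for the X-linked and other genes of the comparison set.  Genes lower by at least 4 log2 units in KMF, 108 in the same CPM range, also had replicate 3 as the lowest in 62.0%, so the pattern was not limited to the 58, whereas the 1060 called lower by any amount had it in 36.2%.

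**Figure D5:**
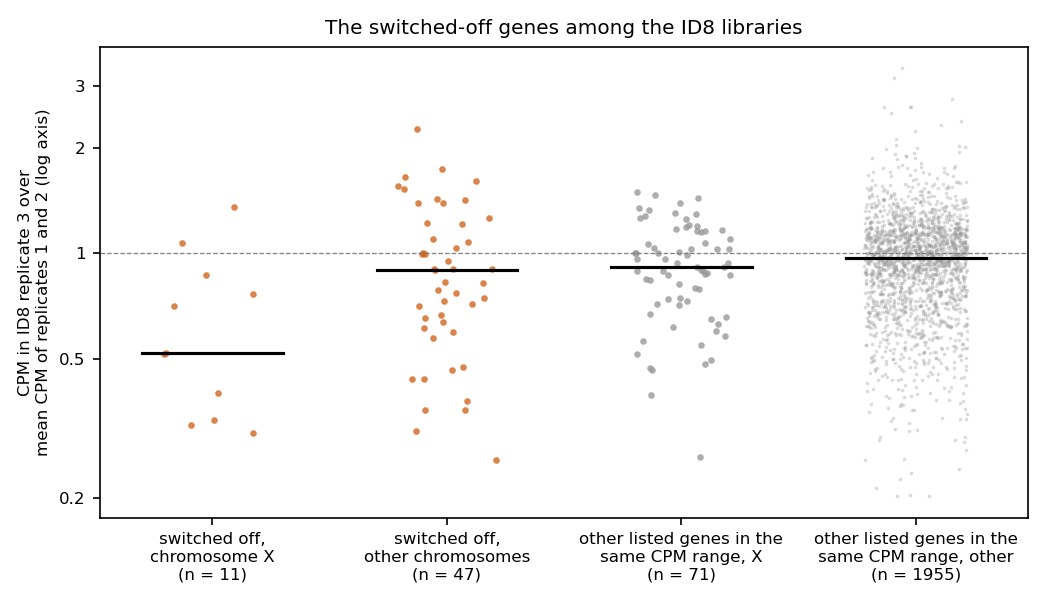
CPM in ID8 replicate 3 over the mean CPM of replicates 1 and 2 (log axis) for X-linked and other switched-off genes and for other listed genes in the same CPM range; each point is a gene and each bar a median. The X-linked switched-off genes have the lowest median, 0.520, and the other 3 groups have medians of 0.896, 0.915 and 0.968.

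The spread differed from gene to gene. The highest ID8 library exceeded the lowest 4.62 times for Clmp, 3.52 times for Prrg3 and 3.33 times for C1qtnf7, each lowest in replicate 3, and 1.01 times for Sectm1a, 1.04 times for Cutal and 1.11 times for Mboat2. The median was 1.59 in the 58 genes and 1.32 in the comparison set. Since the libraries of a line differ in passage and no 2 share one, passage and replicate cannot be told apart. Without ID8 replicate 3 the same limits chose 80 genes instead of 58.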

How the data were processed

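RNA sequencing libraries of ID8 and KMF tumorspheres (n = 3 each) were analysed from the table of the deposited series. The authors deposited raw counts per gene and library that were not normalized. FPKM in the same table had been computed by the authors from counts, the listed gene length and the fragments on genes. The methods name TopHat2, whereas the submitters' processing notes list CASAVA 1.8, STAR 2.5, DESeq2 and build mm10. The counting tool, annotation release and use of strand are not given in the sources used here. Of the 7320 listed genes, 7295 were found in GENCODE M21 (GRCm38, the same assembly) and 7286 at an overlapping position. Deposited line means, log2 fold changes, p-values and adjusted p-values of the authors' own comparison were not used, beyond checking that the table lists only genes below an adjusted p of 0.05. No gene absent from the table was analysed here. Columns of samples from elsewhere numbered 0.

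Library totals were recovered from count, FPKM and length, and gave 23108407 to 33212313 fragments. Counts of all listed genes were fitted with edgeR 4.0.16 (R 4.3.3), using filterByExpr, TMM scaling, the quasi-likelihood F test for KMF against ID8 and Benjamini-Hochberg adjustment over all 6967 fitted genes, called at 0.05. SEs were taken from the fitted log2 difference and its F. On simulated counts of this comparison with 200 of 6960 genes changed by 1 log2 unit, 98.5% of the changed genes were recovered and 5 unchanged genes were called. The simulation had few changed genes, as many up as down, and a fixed dispersion, unlike this table of genes that differed. It checks that the fit runs properly and does not measure the error of the adjusted p values given here. The fold of a switched-off gene is the pooled ID8 CPM over the pooled KMF CPM, with an exact conditional 95% binomial interval, or with 0 KMF counts a lower bound against 3 counts over the KMF group. Alternatives were DESeq2 1.42.0, other scalings, filters and limits, a replicate block, each library left out, and, chosen after seeing the data, adjustment over all 55450 GENCODE genes. Libraries of a line were distinct, with a chi-square per degree of freedom of at least 19.9. Each replicate was an independent RNA sample of its line at another passage, so p-values measure the spread between such samples.

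The members and lists were chosen with earlier results of these data known. Genes were named by a rule: the 12 of highest mean ID8 CPM, the 5 highest with 0 KMF counts, the 4 nearest each side of a limit, the 3 widest and 3 narrowest ratios among ID8 libraries, and up to 4 per role by ID8 CPM. Other genes named were chosen after their values were seen. Promoter windows came from RefSeq (GRCm38.p6), matched by symbol or unique synonym. Genes with no window given included Sectm1a, Zfhx4, Cth, Rab38, Clmp, Mansc1, Heyl, Hey1, Tox, Tlr7, 1110032F04Rik, Nxf3, Cntnap5a and Ccdc166. Values of 2 of the 58 genes are not reported here singly and are not drawn in the plots of counts and folds, but the genes stay in all counts and medians. Figures were drawn with matplotlib 3.10.9 in Python 3.11.15.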

Additional observations from a re-analysis of the deposited data

How the results depend on the processing

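The calls of the 58 genes follow from the limits that chose them, so 58 lower in each fit is no sign of stability, and a filter asking 10 counts of each library left none to test. The number of genes depended on the limits: 23 with 0 counts in every KMF library, 133 with at most 10, 125 with at least 10 counts in every ID8 library and 8 with at least 100. Leaving out each library in turn gave 59 to 80 genes. The median fold or bound of 74.7 became 151 with a floor of 1 count and 44.2 with a floor of 10, and ran from 50.2 (without KMF replicate 3) to 79.5 (without ID8 replicate 3) when a library was left out; the cause was not tested. Over all listed genes 6956 were called, 3494 of them lower. The counts called were 7248 with DESeq2, 6387 with upper quartile scaling, which moved the median log2 difference of all genes from -0.23 to -0.35, and 5018 with adjustment over all GENCODE genes. No listed relative changed direction under another scaling. With TMM-scaled library sizes 36 genes instead of 34 were lowest in ID8 replicate 3, and within 1 Mb 4 genes had another of the set. With a replicate block 6810 genes were called, but same-numbered libraries shared little (r = 0.079, -0.119 and 0.116), and not every library correlated best with its own number (ID8 replicate 2 with KMF replicate 1, r = 0.223), so the numbers only name samples. The median CG content of promoters was not run, since too few windows were given. Counts of 0 limit what depth can show: up to 3 counts, or 0.0375 CPM, over the KMF group.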
